A study of Homo sapiens with 6 samples.

Results

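The 9 genes described here encode the 3 plastins (PLS1, PLS3 and LCP1), the bundling protein fascin (FSCN1), 2 alpha-actinins (ACTN1 and ACTN4), filamin A (FLNA) and the 2 cytoplasmic actins (ACTB and ACTG1). They were picked by gene name, with the difference between the genotypes already known for these libraries, so their levels are given as a description and without a p-value. All 9 were found among the 28395 genes of the normalized count table and among the 60131 genes of the RPKM table, and all 9 passed the filters on low values. RNA-seq was made from K562 cells, an established human leukaemia line with erythroid and megakaryocytic features, in 2 groups of 3 libraries. One group had the genotype WT, and the other had the genotype RUNX1 R320*, a nonsense change in RUNX1, a transcription factor of blood development, that removes its C-terminal end. All cells were grown in the same serum-containing medium without a further treatment in the labels. How the R320* change was made, whether the cells are 1 clone and whether the libraries are separate cultures is not stated in the labels, so the spread between libraries may be technical.

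Actin filaments are polymers of beta-actin and gamma-actin in most cells outside muscle. Bundling proteins hold filaments side by side: plastins and fascin pack them tightly into protrusions such as microvilli and filopodia, alpha-actinins space them more widely, and filamins join them at an angle into networks. LCP1, also called L-plastin, is the plastin of blood cells, PLS3 (T-plastin) is that of many solid tissues, and PLS1 (I-plastin) that of the intestinal brush border and the inner ear. ACTN4 and ACTN1 are the alpha-actinins of cells outside muscle.

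The RefSeq promoters of the 2 plastins with the largest differences between genotypes, and of ACTG1, are shown because RUNX1 binds DNA at TGTGGT and related letters, and because actin genes are known targets of SRF, which binds the CArG box. Each is the 250 bases before a transcript start on GRCh38.p14, and capitals mark a TGTGGT (as ACCACA on the other strand) in LCP1 and a CArG box in ACTG1.
PLS3 promoter, chrX:115560924-115561173, plus strand: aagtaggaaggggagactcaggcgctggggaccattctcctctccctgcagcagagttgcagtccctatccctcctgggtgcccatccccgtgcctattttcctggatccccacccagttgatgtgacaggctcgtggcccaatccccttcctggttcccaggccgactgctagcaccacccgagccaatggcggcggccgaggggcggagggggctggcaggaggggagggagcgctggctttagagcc
LCP1 promoter, chr13:46182178-46182427, minus strand: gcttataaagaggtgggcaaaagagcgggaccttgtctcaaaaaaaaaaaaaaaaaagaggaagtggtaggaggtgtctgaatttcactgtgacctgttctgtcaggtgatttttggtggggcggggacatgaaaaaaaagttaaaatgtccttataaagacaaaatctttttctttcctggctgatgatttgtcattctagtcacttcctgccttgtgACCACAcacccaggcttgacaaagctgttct
ACTG1 promoter, chr17:81512800-81513049, minus strand: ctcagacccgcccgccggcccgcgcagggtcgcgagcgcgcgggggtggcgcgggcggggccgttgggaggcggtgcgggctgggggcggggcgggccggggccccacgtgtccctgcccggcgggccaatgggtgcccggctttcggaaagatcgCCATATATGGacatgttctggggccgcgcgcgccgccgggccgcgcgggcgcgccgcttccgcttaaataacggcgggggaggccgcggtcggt
Promoters were found for 7 of the 9 genes, with 14 starts in all, and were searched over 300 bases, 250 before and 50 after the start. None was found for ACTB and FSCN1, so these were not searched. TGTGGT or TGCGGT, on either strand, was in 19.6% of the 35116 promoters of the table, and the CArG box in 1.29%. Neither start of PLS3 had any of these motifs. The LCP1 promoter had 1 TGTGGT, as did 1 of the 2 ACTN4 starts, while PLS1 had 2 and 1 at its 2 downstream starts and none at its first. A CArG box was found at ACTG1, at FLNA and at 1 of 4 ACTN1 starts, the last of which also had 1 TGCGGT. No other start had a match, and no 2 matches overlapped. A match of letters is a description of these windows and not evidence of binding.

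The normalized counts summed to between 29831700 and 30503800 per library. If 1 step of each column, its smallest value, is 1 read, the libraries held between 29058471 and 31306435 reads, but steps close to 1 leave this uncertain for 3 libraries. Between 17096 and 17419 genes had a value above 0. The erythroleukaemia markers GATA1, TAL1, LMO2, HBG1, HBE1, KLF1 and EPOR were all present in both genotypes, with summed RPKM of 3278 to 3365 in WT and 4942 to 5248 in R320*. Of these 7, 5 were called higher and 2 lower in R320* (limma adjusted p below 0.05), against 26.4% and 27.4% of all genes. RUNX1 transcript itself was 2933 ± 31.6 normalized counts in WT and 5165 ± 124 in R320* (SD, n = 3), a total that does not separate the alleles. Values below are normalized read counts unless RPKM is named. A log2 fold change is the R320* mean less the WT mean of log2(normalized count + 1), with the standard error (SE) of a limma fit over the 14299 genes that reached 10 normalized counts in 3 or more libraries.

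PLS3 went from near the limit of detection in WT cells to a moderate level in R320* cells. Its normalized counts were 27.2, 42.9 and 5.06 in the WT libraries and 1166, 1165 and 1064 in the R320* libraries. Every R320* library lay far above every WT library. Relative to their mean, the WT libraries differed more than the R320* libraries did, with a coefficient of variation of 75.9% against 5.15%. The means were 25.04 ± 19.0 and 1132 ± 58.3 (SD, n = 3), a ratio of 45.2, and the log2 fold change was 5.85 (SE 0.46). The value was 5.01 without WT replicate 3, whose PLS3 level was lowest. PLS3 ranked 11 from the top among the 14299 genes by this value, which is a description, since PLS3 was chosen with this contrast known. Its WT replicate 3 was below 10 normalized counts, so PLS3 passed the filter only with R320* libraries counted. In RPKM, PLS3 was 0.308, 0.456 and 0.0471 in WT and 13.96, 14.6 and 13.9 in R320*, a ratio of means of 52.3.

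LCP1, the plastin that crosslinks actin in leukocytes, was the member with the largest difference in the other direction. It stood at 8699, 8547 and 8439 normalized counts in WT and at 4018, 3672 and 3775 in R320*. Both groups were well separated, with the lowest WT library more than 2-fold above the highest R320* library. The means were 8561 ± 131 and 3822 ± 178 (SD, n = 3), or 55.4% lower in R320*, and the log2 fold change was -1.16 (SE 0.04). PLS1, the brush border plastin, was low in both genotypes, at 467, 357 and 462 in WT and 471, 479 and 426 in R320*. Its libraries overlapped, and the log2 fold change of 0.11 (SE 0.11) was no larger than its error, and it was -0.02 without WT replicate 2. In RPKM it was 0.29 (SE 0.15), also with overlapping libraries.

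**Figure D1:**
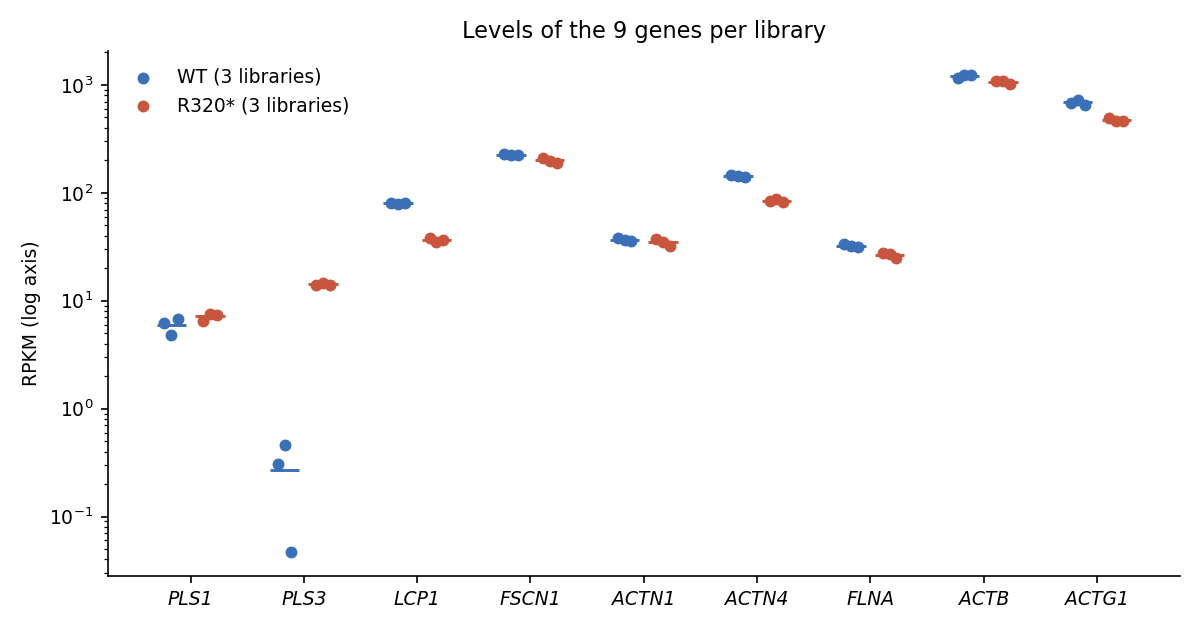
RPKM of each of the 9 genes in each library on a log axis, with points for libraries (blue WT, red R320*) and a short line for the mean of 3. PLS3 moves from a mean of 0.271 to 14.1, LCP1 from 79.97 to 36.3, and ACTB and ACTG1 are the most abundant in both genotypes.

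Levels of different genes are compared here per length, in RPKM. LCP1 made up nearly all plastin transcript in WT cells and a smaller majority in R320* cells. Its share of the summed RPKM of the 3 plastins was 92.6%, 93.8% and 92.2% in WT and 64.8%, 61.4% and 62.9% in R320*. PLS3 held 0.351%, 0.545% and 0.0542% in WT and 23.96%, 25.5% and 24.2% in R320*, so it was the second plastin there. PLS1 held 6.84% ± 1.04 in WT and 12.4% ± 1.04 in R320* (SD, n = 3), at a level that overlapped between the genotypes. The sum of the 3 plastins was lower in R320*, at 57.7 ± 0.561 RPKM against 86.1 ± 2.04 (SD, n = 3), so the RPKM of PLS3 in R320* was smaller than the difference in LCP1.

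**Figure D2:**
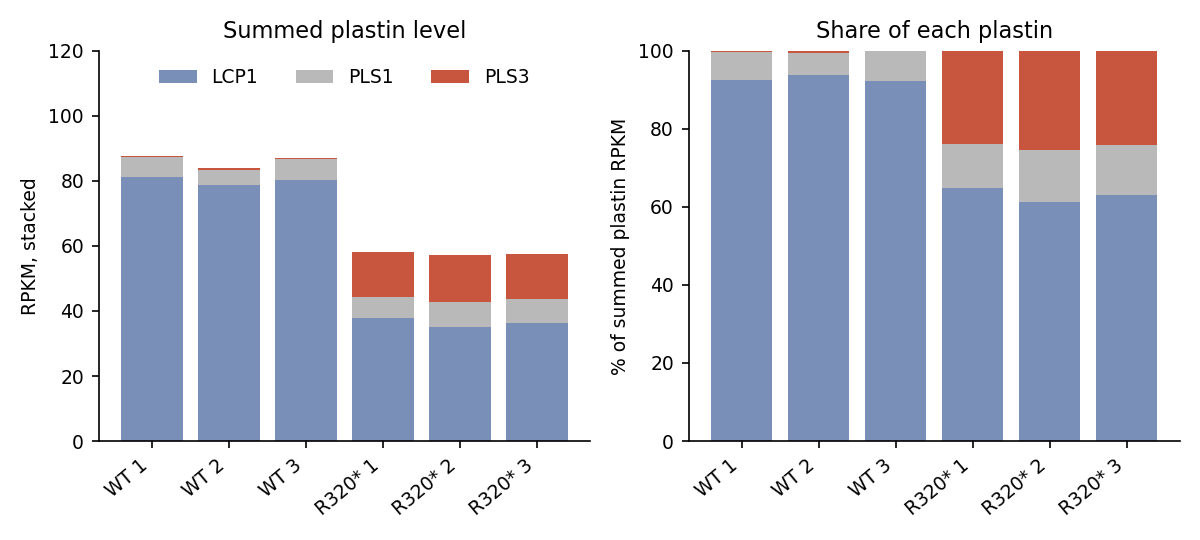
RPKM of the 3 plastins stacked per library (left) and as a share of their sum (right). The sum is 86.1 in WT and 57.7 in R320* on average, and the PLS3 share is below 1% in each WT library and between 23.96% and 25.5% in the R320* libraries.

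The plastin coding sequences show how far their reads can be told apart. The window of 60 bases in which PLS3 and LCP1 are most alike is given next, with capitals at the 5 positions where they differ.
PLS3 coding bases 364 to 423: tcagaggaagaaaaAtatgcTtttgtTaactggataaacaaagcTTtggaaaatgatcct
LCP1 coding bases 355 to 414: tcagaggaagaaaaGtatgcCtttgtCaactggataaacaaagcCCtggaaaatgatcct
Over the whole coding sequence (GENCODE 29), PLS3 and LCP1 were identical at 74.2% of 1881 aligned bases, PLS3 and PLS1 at 69.8% and LCP1 and PLS1 at 69.2%. The longest run shared by any pair was 26 bases, and no stretch of 50 bases in a PLS3 transcript was also in an LCP1 or PLS1 transcript.

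FSCN1, which encodes fascin, the bundler of filopodia, was abundant and nearly level between the genotypes. It was at 24036, 23325 and 24102 normalized counts in WT and 22550.5, 23078 and 23661 in R320*. Some libraries of the 2 groups overlapped, and the log2 fold change was -0.04 (SE 0.03). In the RPKM table they did not overlap, with 228, 223 and 226 in WT and 211, 199 and 188 in R320*, a log2 fold change of -0.18 (SE 0.05) on the log2(RPKM + 0.1) scale. In RPKM, FSCN1 was called lower with all libraries and without R320* replicate 1, but not without any other single library. Of the 9 genes only ACTB and ACTG1 were more abundant than FSCN1, which had a mean of 226 ± 2.75 RPKM in WT and 199 ± 11.4 in R320* (SD, n = 3).

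The 2 alpha-actinins differed from each other. ACTN4 was lower in R320*, at 16777, 16998 and 16356 normalized counts in WT and 10623, 11243 and 11714 in R320*. All 3 R320* libraries lay below all 3 WT libraries, and the means were 16710 ± 326 and 11194 ± 547 (SD, n = 3), with a log2 fold change of -0.58 (SE 0.04). ACTN1 was at 4261, 4477 and 4245 in WT and 4410, 4404 and 4346 in R320*, with overlapping libraries and a log2 fold change of 0.02 (SE 0.04), or -0.08 (SE 0.07) in RPKM. Per length, ACTN4 was the main alpha-actinin in both genotypes. The ratio of ACTN4 to ACTN1 in RPKM was 3.82, 3.91 and 3.96 in WT and 2.26, 2.50 and 2.55 in R320*, and the ACTN4 share of their sum went from 79.6% ± 0.283 to 70.9% ± 1.33 (SD, n = 3). ACTN4 overlaps CAPN12 on the opposite strand, and CAPN12 was low beside it, at 7.73 RPKM in WT and 7.29 in R320*.

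FLNA, the filamin that links actin networks to membrane receptors, was slightly lower in R320* cells. It was at 9294, 9310 and 8709 normalized counts in WT and 7634, 7837 and 8051 in R320*. Its groups did not overlap, and the difference of 13.9% in means corresponded to a log2 fold change of -0.22 (SE 0.04). Its paralog FLNC, the muscle filamin, named after its value was seen, was at 12004 ± 267 in WT and fell to 9193 ± 354 in R320*, a log2 fold change of -0.39 (limma adjusted p = 1.96e-07).

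Both cytoplasmic actins were lower in R320*, ACTG1 by more than ACTB. ACTG1, gamma-actin, was at 33095, 32587 and 32378 normalized counts in WT and 21686, 20599 and 20863 in R320*, with no overlap. The means of 32687 ± 369 and 21049 ± 567 (SD, n = 3) gave a log2 fold change of -0.64 (SE 0.03). ACTB, beta-actin, was at 62732, 67395 and 67811 in WT and 58199.9, 60015 and 59322 in R320*. Its groups were also separate, but by a smaller distance, with means 10.3% apart and a log2 fold change of -0.16 (SE 0.04). The ratio of ACTB to ACTG1 in RPKM was 1.71, 1.70 and 1.90 in WT and 2.19, 2.34 and 2.19 in R320*. Their summed level was 1904 ± 66.9 RPKM in WT and 1533 ± 43.96 in R320* (SD, n = 3).

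The actin genes are alike in sequence. Their first 60 coding bases, less alike than their coding sequences as a whole, are given next, with capitals at the 10 positions where they differ.
ACTB coding bases 1 to 60: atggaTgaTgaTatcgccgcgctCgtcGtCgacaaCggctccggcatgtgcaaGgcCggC
ACTG1 coding bases 1 to 60: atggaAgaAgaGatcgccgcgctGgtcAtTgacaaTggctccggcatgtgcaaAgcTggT
Their coding sequences were identical at 91.3% of 1125 bases, and 10 of 3967 stretches of 50 bases in ACTB transcripts, or 0.252%, were also in ACTG1 transcripts. Pseudogenes named after them share more, with 2.60% of the ACTB stretches and 1.60% of the ACTG1 stretches. The 10 ACTB pseudogenes of the RPKM table summed to 0.467% of the ACTB value in WT and 0.520% in R320*, and the 19 ACTG1 pseudogenes to 0.846% and 1.42% of ACTG1. The counting rule for such reads is not given in the sources used here. How far shared reads affect the levels of both actins was not tested, and these shares do not bound it.

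In order of level, the WT libraries had ACTB, ACTG1, FSCN1, ACTN4, LCP1, ACTN1, FLNA, PLS1 and PLS3 from highest to lowest mean RPKM, and no 2 neighbours in that order had overlapping libraries. The R320* libraries kept that order except that PLS3 stood above PLS1, at 14.1 ± 0.349 against 7.15 ± 0.536 RPKM (SD, n = 3). There the libraries of LCP1 (36.3 ± 1.35) and ACTN1 (34.8 ± 2.78) overlapped between the genes, although LCP1 was the higher of the 2 within each library.

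Of the 9 genes, 1 was called higher and 5 lower in R320* by limma (adjusted p below 0.05), and 3 (PLS1, FSCN1 and ACTN1) were not called. Over all 14299 genes 53.7% were called, 26.4% higher and 27.4% lower. The same 6 genes had no overlap between the genotypes, against 59.8% of all genes, 29.6% with R320* above and 30.2% with R320* below. Since the genes were chosen with this comparison known, nothing is read from these counts. By RPKM, 1 was called higher and 6 lower, with FSCN1 added, against 31.9% of the 17769 genes tested there, 15.1% higher and 16.8% lower. The gene called higher was PLS3, which passed the RPKM filter only through R320*, since its WT libraries were below 0.5 RPKM. The median log2 fold change of the 9 genes was -0.16 in normalized counts and -0.20 in RPKM, and that of all genes was 0.01 in each table.

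**Figure D3:**
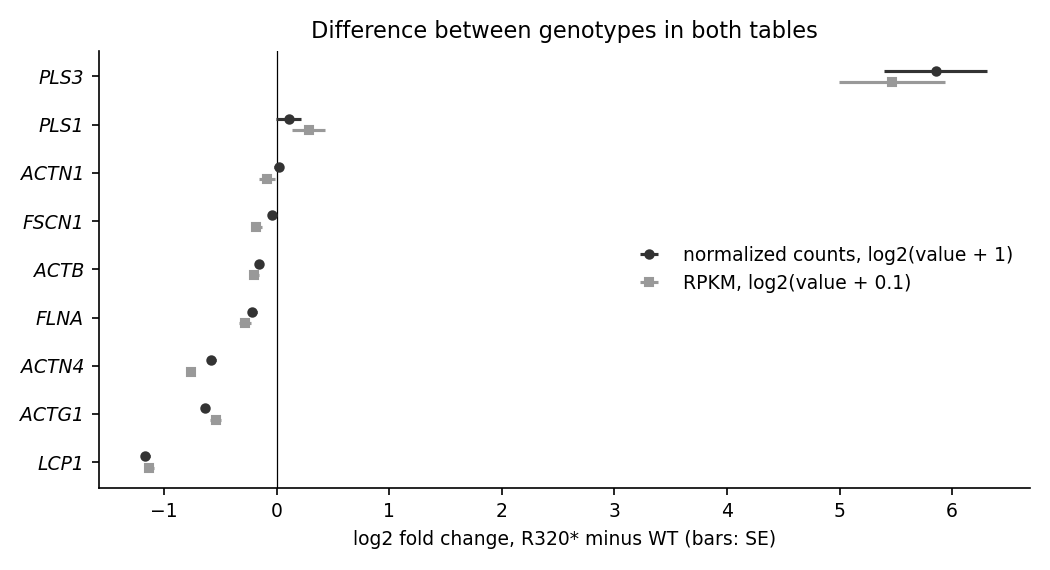
Log2 fold change of each gene, R320* minus WT, with its SE, in normalized counts (circles) and in RPKM (squares). PLS3 stands at 5.85 and 5.47, LCP1 at -1.16 and -1.14, and the 7 others lie between -0.76 and 0.29.

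The other genes of the actin cytoskeleton were mostly lower in R320* cells. Of 135 further genes in 7 lists, 120 were tested, of which 68 were called lower and 29 higher (limma adjusted p below 0.05), so 80.8% were called against 53.7% of all genes. Their median log2 fold change was -0.23, against 0.01 for all genes. Many were abundant: 78 of the 120 had a mean of at least 1000 normalized counts, and 84.6% of those were called, against 66.2% of all genes at that level. By RPKM, 53 of 112 tested were called lower and 14 higher, against 16.8% lower and 15.1% higher of all 17769 genes tested there. The lists were made with earlier results of these data known.

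**Figure D4:**
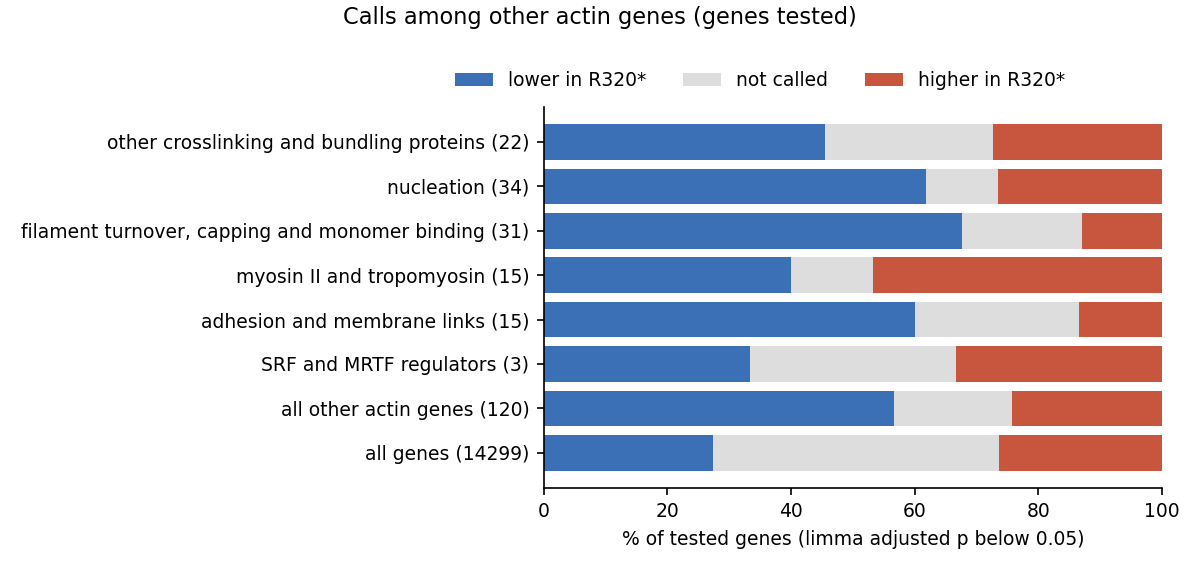
Share of the tested genes of each actin list called lower (blue), not called (grey) or called higher (red) in R320*, with the number tested in brackets. Lower calls make up 56.7% of all other actin genes and 27.4% of all genes.

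Other crosslinking and bundling proteins gave 10 lower and 6 higher calls among 22 tested genes (limma), and their median log2 fold change was -0.09. ESPN, which encodes espin, a bundler of microvilli and hair cell stereocilia, rose by 1.92 on the log2 scale, with means of 911 ± 72.5 in WT and 3452 ± 207 in R320* (limma adjusted p = 3.63e-13). UTRN (utrophin) and DMD (dystrophin), related proteins that tie actin to the membrane, went in opposite directions. UTRN fell from 1081 ± 119 to 3.26 ± 2.27, while DMD rose from 105 ± 11.7 to 540 ± 32.9, each with the 3 libraries of a genotype apart from those of the other (limma adjusted p = 1.78e-12 and 2.14e-10). UTRN passed the filter on low values only through the WT libraries, so it was not tested without any 1 of them. DMD differed less in RPKM than in counts, with RPKM means of 2.41 in WT and 6.22 in R320*. ACTN2, the alpha-actinin of heart and skeletal muscle, named after its value was seen, rose from 248 ± 32.5 to 499 ± 31.9 normalized counts, by 1.01 on the log2 scale (limma adjusted p = 1.40e-06). In RPKM it was 4.26 and 5.04 on average and was not called (limma adjusted p = 0.199). The 4 other actin isoforms, which belong to muscle cells (ACTA1, ACTA2, ACTC1 and ACTG2), did not pass the filter, with a highest value of 15.7 normalized counts in any library.

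Genes that start new filaments gave 21 lower and 9 higher calls among 34 tested, and their median log2 fold change was -0.23. DIAPH1, a formin that elongates unbranched filaments, stood at 20965 ± 591 in WT and fell to 11766 ± 42.8 in R320* (limma adjusted p = 3.26e-12). ARPC3, a subunit of the ARP2/3 complex that starts branches, fell from 5692 ± 161 to 2817 ± 173 (limma adjusted p = 2.73e-11), and ABI2, a subunit of the WAVE complex that activates ARP2/3, fell from 1933 ± 70.7 to 975 ± 27.4 (limma adjusted p = 3.09e-10). All R320* libraries lay below all WT libraries for these 3 genes.

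Genes of filament turnover, capping and monomer binding had a median log2 fold change of -0.36, or -0.26 in RPKM, with 21 of 31 tested genes called lower and 4 higher. TMSB4X, thymosin beta-4, which holds actin monomers in reserve, was at 7577, 7872 and 7738 in WT and 1318, 1413 and 1476 in R320*. It fell 5.51-fold between the means, with no overlap (log2 fold change -2.46, SE 0.05, limma adjusted p = 6.40e-16). GSN, gelsolin, which severs and caps filaments, fell from 677 ± 26.7 to 152 ± 26.1, and SSH1, a phosphatase that activates cofilin, from 920.3 ± 76.5 to 311 ± 51.8 (limma adjusted p = 5.23e-10 and 4.37e-09).

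Myosin II and tropomyosin genes were split, with 7 of 15 called higher and 6 lower and a median of -0.01. The 3 with the smallest p-values fell: TPM4, a tropomyosin that coats filaments, from 1989 ± 44.2 to 783 ± 23.9, TPM1 from 596 ± 43.3 to 101 ± 3.45, and the myosin light chain MYL6 from 5556 ± 125 to 2970 ± 160 (limma adjusted p = 8.17e-12, 3.80e-11 and 6.02e-11). For TPM1 the ratio of WT to R320* means was 5.90 in counts, and in RPKM the means were 21.9 and 8.01.

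Genes that link actin to adhesions and the membrane gave 9 lower and 2 higher calls among 15 tested, and their median was -0.33. FERMT3, kindlin-3, an integrin activator of blood cells, fell from 7249 ± 116 in WT to 1723 ± 60.05 in R320* (limma adjusted p = 1.36e-15). VCL, vinculin, which joins filaments to adhesion sites, fell from 9001 ± 648 to 3376 ± 114, and EZR, ezrin, which ties filaments to the membrane, from 5185 ± 17.01 to 2452 ± 47.5 (limma adjusted p = 6.14e-13 and 1.38e-12).

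SRF, a transcription factor of actin genes, was at 2372 ± 114 and 2551 ± 172 and was not called (limma adjusted p = 0.129). Its coactivator MRTFA fell from 665 ± 63.3 to 509 ± 11.7 (limma adjusted p = 0.00151), and MRTFB rose from 1376 ± 70.6 to 1583 ± 117 (limma adjusted p = 0.0136). Neither coactivator was called in the RPKM table (limma adjusted p = 0.120 and 0.0789), and MRTFB also lost its call without WT replicate 1 (adjusted p = 0.0649), without R320* replicate 1 (0.0819) and without the intensity trend (0.0732). SRF was called without R320* replicate 1 (limma adjusted p = 0.0210).

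The genes whose profile over the 6 libraries was most like that of each plastin were found by the Euclidean distance between log2(normalized count + 1) values centred on the gene mean. For PLS3 and LCP1, with 2 groups, this distance mostly reflects the difference between genotypes. For PLS3 they were MUC19 (distance 0.331), a mucin gene, at 3.39 ± 3.07 in WT and 191 ± 18.0 in R320*, the noncoding MIR99AHG (0.846), at 2.72 ± 2.36 and 126 ± 19.4, and PTN (1.55), pleiotrophin, at 12.9 ± 4.41 and 907 ± 51.1. MUC19 and MIR99AHG stayed below 10 normalized counts in every WT library and passed the filter only through R320*. PTN, like PLS3, was below 10 in WT replicate 3, so it also passed only with R320* libraries counted. For LCP1 they were STXBP5 (0.0383), TANC1 (0.0555) and ANKRD52 (0.0810), and for PLS1, which differed little between genotypes, SLC10A4 (0.122), PILRB (0.129) and SCOC (0.135). Like PLS1, SLC10A4, PILRB and SCOC were lowest in WT replicate 2.

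The nearest tested genes around PLS3, LCP1 and ACTG1 mostly did not share the differences of those genes, but those around PLS3 were sparse. Over all tested genes, 26.4% were called higher and 27.4% lower. PLS3 (chromosome X, 115561174 to 115650861, GRCh38) had 3 higher and 5 lower calls among the 5 nearest tested genes on each side, with a median log2 fold change of -0.31. These genes span 9073 kb, against 2659 kb around LCP1 and 435 kb around ACTG1, so they say little about the region close to PLS3. The next tested gene at higher coordinates, CT83, a cancer-testis antigen 811 kb away and named after its value was seen, was at 0 in all WT libraries and at 23.5, 35.7 and 45.7 in R320*. CT83 was called higher, in the direction of PLS3. LCP1 (chromosome 13, 46125923 to 46182177) had 2 higher and 2 lower neighbours of 10, with a median of 0.03. ACTG1 (chromosome 17, 81509971 to 81512799) had 6 higher and 0 lower neighbours, with a median of 0.36, opposite to its own log2 fold change of -0.64. ACTN4 (chromosome 19, 38647649 to 38731589) had 0 higher and 4 lower neighbours, with a median of -0.16, in the direction of its own -0.58. ACTB and FSCN1 are neighbours themselves, 62.2 kb apart on chromosome 7, and their neighbours had medians of -0.06 and -0.10. PLS1 had 4 higher and 0 lower neighbours (median 0.14), ACTN1 had 1 and 4 (-0.11), and FLNA had 3 and 2 (0.07).

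**Figure D5:**
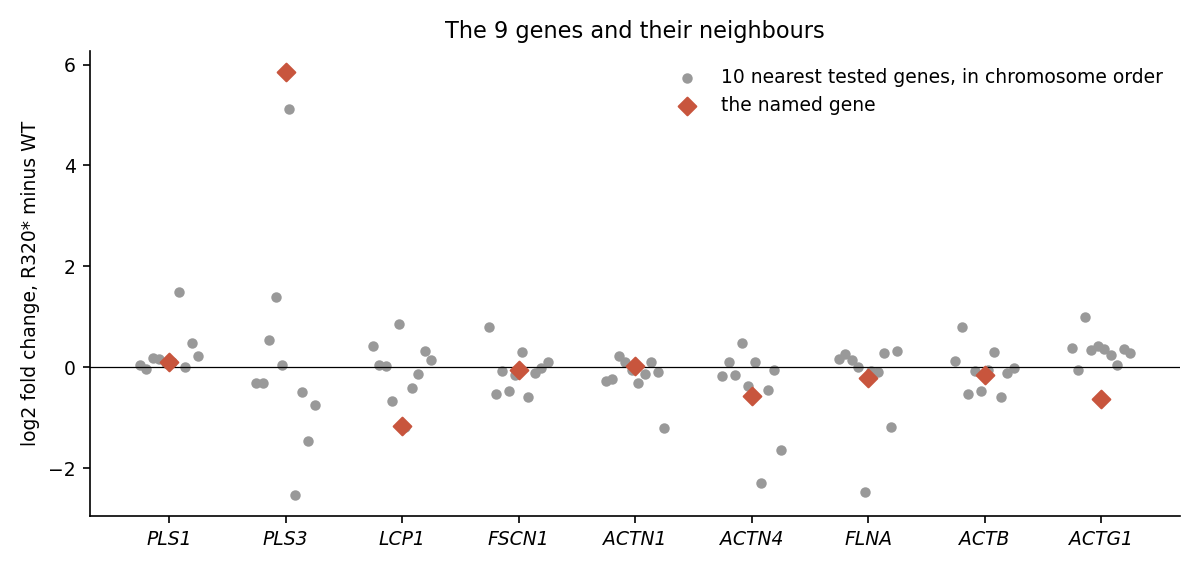
Log2 fold change, R320* minus WT, of each gene (diamond) and of its 5 nearest tested genes on each side in chromosome order (grey points). PLS3 at 5.85 and CT83, whose plotted value depends on the pseudocount because its WT libraries are at 0, stand above all others, and ACTG1 at -0.64 lies below all 10 of its neighbours.

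PLS3 is a gene of many solid tissues, so markers of other cell types were read in the same libraries. In bulk RNA fewer cells of a type and less RNA per cell cannot be told apart. Summed RPKM of 7 fibroblast markers was 24.4 to 25.1 in WT and 20.2 to 21.4 in R320*, mostly from COL1A2, which fell from 3388 to 2725 normalized counts on average (limma adjusted p = 1.51e-05). COL1A1 rose from 64.7 ± 3.50 to 101 ± 23.8 normalized counts (SD, n = 3; limma adjusted p = 0.0313), in the same direction as PLS3, and was not called in RPKM (limma adjusted p = 0.0788), while COL3A1, LUM and THY1 stayed below 10 normalized counts in every library. Summed RPKM of 5 epithelial markers was 88.4 to 98.7 in WT and 233 to 249 in R320*, from KRT19 and EPCAM, both called higher, and CDH1 stayed below 10 normalized counts. Summed RPKM of 3 endothelial markers was at most 1.11 in any library, with CDH5 at 0, and that of 4 T and B cell markers was 43.1 to 45.9 in WT and 23.7 to 34.4 in R320*, mostly from CD3D. The part of these markers in the difference of PLS3 was not tested.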

How the data were processed

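RNA-seq of 3 WT and 3 R320* libraries of K562 cells was used. HISAT2, featureCounts, DESeq2, Salmon and hg38 are named in the submitters' processing notes, without the role of each. The first table holds a signal per Entrez gene, deposited as normalized counts scaled by the authors: 100% of values above 0 were whole multiples (within 1e-06) of the smallest value, which was 0.953 to 1.05. RefSeq (GRCh38.p14) gave symbols for 27745 of 28395 identifiers. The deposited RPKM values, so named by the authors, summed to 721735 to 786389 per library, so another length-scaled unit is possible, and a 0 there may be a failed estimate.

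The main test was limma 3.58.1 (R 4.3.3) with intensity trend on log2(normalized count + 1), R320* against WT, without the replicate number. Genes needed 10 normalized counts in 3 libraries. P-values were adjusted by Benjamini-Hochberg and called below 0.05. RPKM were fitted likewise as log2(RPKM + 0.1), with 0.5 RPKM needed in 3 libraries. The fit was tested on simulated data. Members and lists were chosen with earlier results of these data known. Named genes were the 9 members, up to 3 per list with the smallest adjusted p among called genes without overlap, the SRF group and the 3 genes closest to each plastin. Python 3.11.15, NumPy 2.4.6, pandas 2.3.3, Biopython 1.88 and matplotlib 3.10.9 were used. Alternatives were other pseudocounts, filters, scalings (TMM coded by hand on the deposited values, upper quartile, quantile), no intensity trend, a block for the replicate number, the RPKM table and each library left out. Isoforms, alleles and raw reads were not analysed here. Values of 2 genes withheld for evaluation are not reported here.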

Additional observations from a re-analysis of the deposited data

How the results depend on the processing

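The 6 members called in normalized counts (PLS3, LCP1, ACTN4, FLNA, ACTB and ACTG1) kept their direction under the 16 alternatives run, and 6 or 7 members were called. The log2 fold change of PLS3 ranged from 5.01 without WT replicate 3 to 6.44 without WT replicate 2, that of LCP1 from -1.20 to -1.13, of ACTG1 from -0.66 to -0.54, of ACTN4 from -0.76 to -0.54, of FLNA from -0.28 to -0.18 and of ACTB from -0.20 to -0.12. In RPKM, ACTB lost its call without WT replicate 2, and PLS3 did not pass the filter without any 1 of the R320* libraries, since its WT libraries are below 0.5 RPKM. The WT level of PLS3 rests on 27.2, 42.9 and 5.06 normalized counts, which limits its ratio. Other actin genes called higher were 29 in normalized counts and 14 in the RPKM table, and those called lower ranged from 53 to 68. The cause was not tested. Genes called in all ranged from 5675 in the RPKM table to 7854, against 7685. The size of the smallest limma adjusted p-values depends on the setting. Without the intensity trend, that of TMSB4X went from 6.40e-16 to 1.88e-05 and that of FERMT3 from 1.36e-15 to 1.86e-05. That of ESPN went from 3.63e-13 to 8.19e-05. In RPKM, the limma adjusted p of TMSB4X was 2.26e-06. Deviations of the same-numbered libraries correlated little across genes (Pearson r 0.03, -0.003 and -0.003). With 3 libraries per genotype, these values cannot show whether the numbers mark a shared culture or day. With the replicate number as a block 7854 genes, 6 members and 29 higher and 67 lower actin genes were called, and 4865 genes in RPKM. The planned edgeR and DESeq2 tests were not run, because whole reads could not be established for the 3 libraries whose step is close to 1.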
